A study of Mus musculus with 21 samples.

Results

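The 10 genes described here encode the replicative helicase of mouse cells and the proteins that load and start it. They were chosen by name, and all 10 were found among the 30519 genes of the deposited table: the helicase subunits Mcm2, Mcm3, Mcm4, Mcm5, Mcm6 and Mcm7, the loaders Cdc6 and Cdt1, and the activation factors Cdc45 and Mcm10. The data are low-input RNA sequencing of 2 cell populations isolated from the bone marrow of mice by flow sorting, the hematopoietic stem cell (HSC) and the megakaryocyte-erythroid progenitor (MEP). Etv6 encodes a transcriptional repressor of the ETS family, and the animals were wild type (WT) or carried a change in it: P216L, S211I, or both changes together (double mutant). The groups were MEP P216L (n = 3 libraries), MEP S211I (n = 2), MEP double mutant (n = 3), MEP WT (n = 2), HSC P216L (n = 3), HSC S211I (n = 2), HSC double mutant (n = 3) and HSC WT (n = 3). The sample titles name S211I, while the genotype field of the same samples writes another first residue, and the form of the titles is used. The labels give no age, sex or zygosity, and nothing in them ties a library to an animal of its own, so the p values reflect variation among libraries, which may be technical.

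Before a cell copies its DNA, the origin recognition complex, Cdc6 and Cdt1 place rings of Mcm2 to Mcm7 on replication origins, a step called licensing. At the start of S phase Cdc45 and the GINS complex join the ring to form the active helicase, and Mcm10 helps to set it in motion. Cdt1 is held in check by geminin and by degradation during S phase. The genes are textbook targets of E2F factors. Most HSC of adult marrow are quiescent, whereas MEP are a cycling progenitor population.

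Levels are given in CPM, the estimated counts of a gene scaled to a common library total of 1e6. The MEP libraries held 3387389 to 12130358 counts, and 10 of the 11 HSC libraries held 151216 to 2250654. The library labelled HSC S211I replicate 2 stood apart with 13154016 counts and 16603 detected genes, against 3988 to 10280 genes in the other HSC libraries. Across genes, its profile had r = 0.990 to the MEP average on the log2 CPM scale, where the other HSC libraries reached 0.530 to 0.838. It is shown apart where libraries are listed. In HSC S211I the Mcm2 changes, the medians of the 10 genes and the number above 0 are also given without it. Other HSC S211I results, such as the changes of Mcm3, Mcm5 and Cdt1, the overlaps and the further gene lists, include it. Of 13 HSC markers, 12 were detected in HSC WT libraries, with Slamf1 at 0, and 12 in MEP WT libraries, with Procr at 0. Their summed level was 4100 to 6730 CPM in HSC WT and 597 and 732 CPM in MEP WT. Of 15 erythroid markers, all were detected in MEP WT libraries and 14 in HSC WT libraries, with summed levels of 25445 and 27401 CPM in MEP WT and 3171 to 7091 CPM in HSC WT. The 10 megakaryocyte markers went the other way, with sums of 43.7 and 48.4 CPM in MEP WT and 416 to 589 CPM in HSC WT.

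All 10 genes were detected in each of the 10 MEP libraries. In HSC, all 10 were detected in P216L replicate 3, in both S211I libraries and in double-mutant replicates 1 and 3, while 5, 6 and 8 were detected in the 3 WT libraries. The summed level of the 10 genes was 4841 to 5957 CPM in the MEP libraries of all genotypes. In HSC it was 1759, 3532 and 6278 CPM in P216L, 1794 and 5439 CPM in S211I, 2051, 924 and 4241 CPM in the double mutant, and 754, 837 and 1850 CPM in WT. The higher S211I value belongs to replicate 2. The MEP libraries lay close together, and among HSC libraries the highest and the lowest sums were 6278 CPM in P216L replicate 3 and 754 CPM in WT replicate 1.

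**Figure D1:**
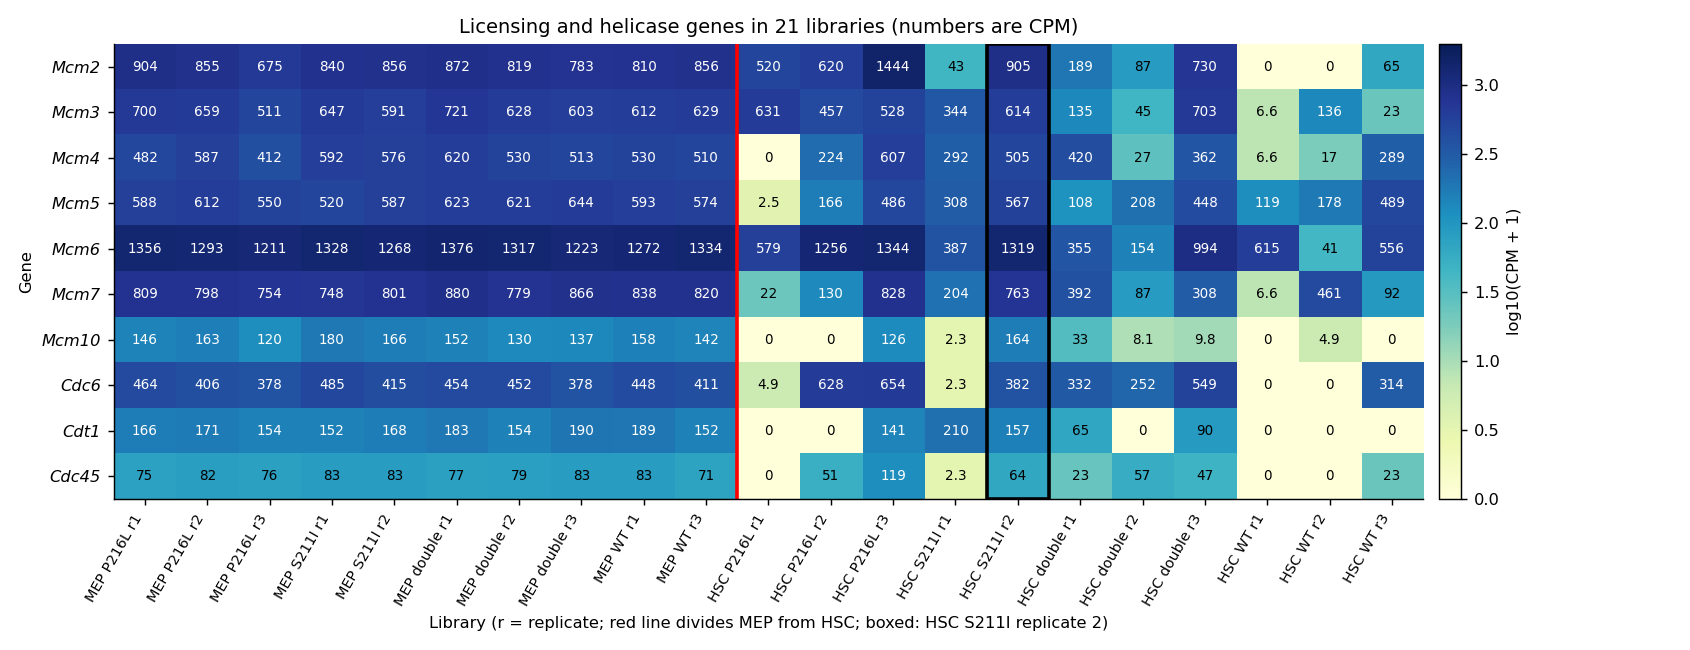
Level of each gene (rows) in each of the 21 libraries (columns), as CPM printed in the cell and log10(CPM + 1) as its color. The 10 MEP columns on the left are near uniform within each row, while the 11 HSC columns on the right vary and hold cells at 0, most of them in WT and P216L replicate 1. The boxed column, HSC S211I replicate 2, resembles the MEP columns.

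In WT mice every one of the 10 genes was higher in both MEP libraries than in all 3 HSC libraries, as were 35.8% of all genes tested. The test across 12036 genes called Mcm2, Mcm3 and Cdt1, 3 of 10, higher in MEP, where it called 3.62% of all genes higher. The median log2 fold change of the 10 genes was 3.21, and it stays at that value with Cdt1 at its lower bound. The median of all genes tested was 0.90. With relative log expression (RLE) size factors in place of trimmed means (TMM), the median of all genes was 0.17 and that of the 10 genes 2.63, so the 10 genes stood 2.31 above the median gene with TMM and 2.46 above it with RLE. Without HSC WT replicate 3 the median of the 10 genes was 6.19, which was 4.55 above the median gene, with Mcm2, Cdc6, Cdt1 and Cdc45 at 0 in both remaining HSC WT libraries.

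Mcm2, whose product is the subunit that also binds histones, was at 810 and 856 CPM in MEP WT libraries, against 0, 0 and 64.5 CPM in HSC WT libraries. The groups did not overlap, and the reads in HSC WT were 31 counts, all in replicate 3. The log2 fold change was 5.62 ± 1.26 (SE; edgeR adjusted p = 0.0128, n = 2 and 3). Mcm3 was at 612 and 629 CPM in MEP WT libraries, against 6.61, 136 and 22.8 CPM in HSC WT libraries. It too was higher in every MEP library, with a log2 fold change of 4.09 ± 0.95 (SE; edgeR adjusted p = 0.0155).

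Cdt1, the licensing factor that geminin binds, was at 189 and 152 CPM in MEP WT libraries and at 0 counts in all 3 HSC WT libraries. A count of 0 allows up to 19.8, 7.31 and 6.24 CPM in these HSC libraries, by counting error alone. With 3 counts set over the 3 HSC WT libraries together, Cdt1 was at least 59.3-fold higher in MEP (edgeR adjusted p = 0.0258). Its partner Cdc6, the ATPase that brings the helicase to the origin, was at 448 and 411 CPM in MEP WT libraries, against 0, 0 and 314 CPM in HSC WT libraries. The reads in HSC came from replicate 3 alone, which lay below both MEP libraries, and the difference did not pass (log2 fold change 2.44 ± 1.49, edgeR adjusted p = 0.298).

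The other helicase subunits did not pass the test. Mcm4 was at 530 and 510 CPM in MEP WT libraries, against 6.61, 17.1 and 289 CPM in HSC WT libraries (log2 fold change 2.74 ± 1.30, edgeR adjusted p = 0.169). Mcm5 was at 593 and 574 CPM in MEP WT libraries, against 119, 178 and 489 CPM in HSC WT libraries, a log2 fold change of 1.69 ± 0.99 that was the smallest of the 10. These values show HSC WT replicate 3 nearest to MEP for both genes. Mcm6 was at 1272 and 1334 CPM in MEP WT libraries, against 615, 41.4 and 556 CPM in HSC WT libraries (log2 fold change 2.38 ± 0.78, edgeR adjusted p = 0.0669). Mcm7 was at 838 and 820 CPM in MEP WT libraries, against 6.61, 461 and 91.6 CPM in HSC WT libraries (log2 fold change 2.76 ± 1.08, edgeR adjusted p = 0.105). A different HSC library was highest for Mcm6 and Mcm7 than for Mcm4 and Mcm5. The library kit does not mark strand, and exons of Mcm7 share 321 bases with Ap4m1 and 64 with Cops6 on the opposite strand and hold Mir25 and Mir93, while Cdc45 shares 209 bases with Ufd1, so reads there cannot be told apart from those of the partner gene (exons of GENCODE M21 on GRCm38).

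Of the activation factors, Mcm10 was at 158 and 142 CPM in MEP WT libraries, against 0, 4.87 and 0 CPM in HSC WT libraries (log2 fold change 6.94 ± 2.07, edgeR adjusted p = 0.0539). Cdc45, the helicase cofactor that stays with the moving fork, was at 83.0 and 71.1 CPM in MEP WT libraries, against 0, 0 and 22.9 CPM in HSC WT libraries (log2 fold change 3.66 ± 1.70, edgeR adjusted p = 0.158). Both genes were at 0 in 2 of the 3 HSC libraries. Mcm2 and Mcm3 passed in 13 of 14 alternative settings, and Cdt1 in 8 of the 13 that gave it an adjusted p. None passed when only these 5 libraries were fitted, and Cdt1 missed without HSC WT replicate 1, 2 or 3 or MEP WT replicate 1 (edgeR adjusted p = 0.0588, 0.0853, 0.0576 and 0.0557). The summed level of 16 mitosis markers was 3263 and 3309 CPM in MEP WT libraries, against 1012 to 1840 CPM in HSC WT libraries. With every library thinned to 151215 counts, Mcm2, Mcm3, Mcm10 and Cdt1 were called, as they were without HSC S211I replicate 2, which enters the fit's spread. Over all genes, the thinned libraries gave 389 higher in MEP WT and 65 lower, of 7539 tested. The part of cell cycle state in the WT differences was not tested, and in bulk libraries fewer cells that express a gene and less RNA per cell cannot be told apart.

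**Figure D2:**
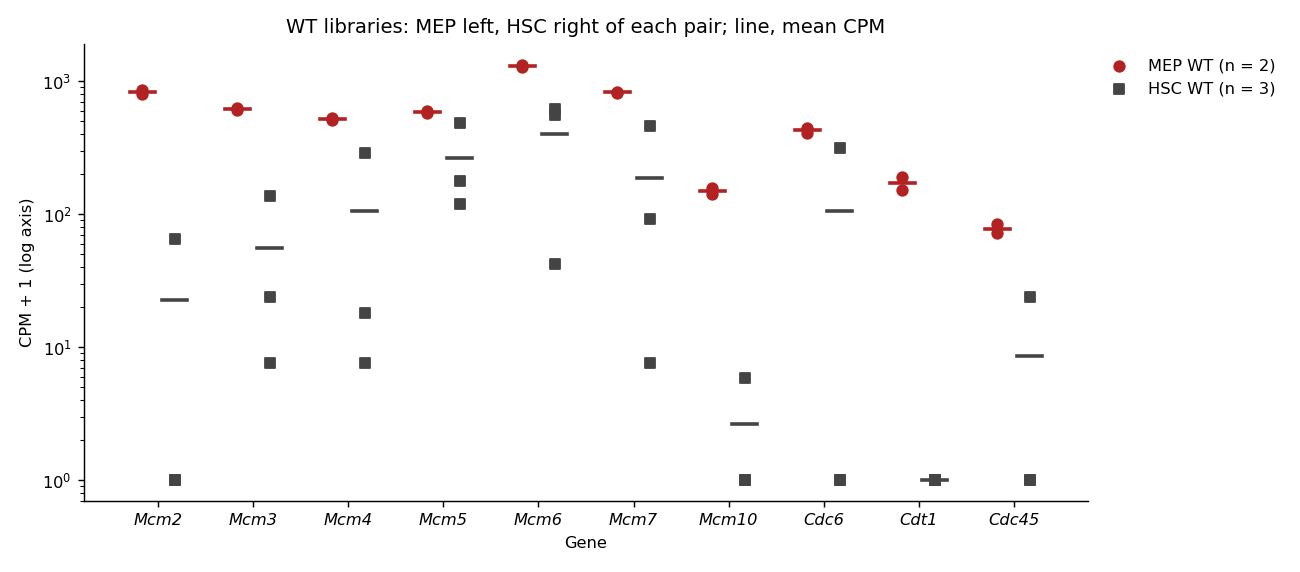
CPM + 1 on a log axis for each gene in the 2 MEP WT libraries (circles) and the 3 HSC WT libraries (squares), with a line at each group's mean CPM. For all 10 genes both circles lie above all squares, and squares at the floor of the axis are libraries with 0 counts.

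The promoters of Mcm2, Mcm3 and Cdt1 are printed because these 3 genes passed in WT. The windows run from 250 bases before to 50 bases after the annotated start and come from RefSeq on GRCm38.p6, where 9 of the 10 genes matched and Mcm4 did not. The minus-strand windows of Mcm2 and Mcm3 are at chr6:88898731-88899030 and chr1:20820263-20820562, and the plus-strand window of Cdt1 is at chr8:122567765-122568064. Capitals mark the E2F-type words TTTCGCGC, TTTGGCGC, TTTCCCGC and TTTGCCGC and the word CCAAT, each searched on both strands.
Mcm2: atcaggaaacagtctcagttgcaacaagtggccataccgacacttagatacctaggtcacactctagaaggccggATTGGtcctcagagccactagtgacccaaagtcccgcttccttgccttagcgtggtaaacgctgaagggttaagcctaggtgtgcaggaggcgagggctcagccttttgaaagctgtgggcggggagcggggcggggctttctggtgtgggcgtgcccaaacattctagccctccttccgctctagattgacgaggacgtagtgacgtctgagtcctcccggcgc
Mcm3: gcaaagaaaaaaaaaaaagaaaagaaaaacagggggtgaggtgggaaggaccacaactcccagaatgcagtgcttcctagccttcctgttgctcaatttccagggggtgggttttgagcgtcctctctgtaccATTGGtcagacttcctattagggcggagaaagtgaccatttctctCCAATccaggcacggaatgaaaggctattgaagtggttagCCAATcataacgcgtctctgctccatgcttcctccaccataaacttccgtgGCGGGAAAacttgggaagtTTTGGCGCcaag
Cdt1: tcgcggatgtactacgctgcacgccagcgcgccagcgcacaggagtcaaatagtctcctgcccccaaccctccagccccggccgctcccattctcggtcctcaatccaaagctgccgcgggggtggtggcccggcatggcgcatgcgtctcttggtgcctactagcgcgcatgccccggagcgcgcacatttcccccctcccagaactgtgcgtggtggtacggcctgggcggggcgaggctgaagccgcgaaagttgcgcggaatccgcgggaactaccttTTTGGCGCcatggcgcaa
Mcm2 holds 1 CCAAT word and no E2F-type word, Mcm3 holds 2 E2F-type and 3 CCAAT words, and Cdt1 holds 1 E2F-type word and no CCAAT word. E2F-type words were also found in Mcm5, Mcm6, Mcm7 and Cdc6, and 1 of them in each is printed in capitals with the bases around it. They lie at chr8:75109346-75109373 on the plus strand, chr1:128359735-128359762 on the minus strand, chr5:138171850-138171877 on the minus strand and chr11:98908003-98908030 on the plus strand.
Mcm5: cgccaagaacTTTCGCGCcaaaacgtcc
Mcm6: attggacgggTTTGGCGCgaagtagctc
Mcm7: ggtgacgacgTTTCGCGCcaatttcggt
Cdc6: ccggtggagaGCGGGAAAtcgcctgggg
In all, 6 of 9 genes and 6 of their 10 windows (60%) held an E2F-type word, against 2.26% of all 32851 windows of the same length and 4% of the windows of genes tested. CCAAT stood in 8 of the 10 windows (80%) and in 37.4% of all windows. Words of the same class overlap in Mcm5 and Mcm6, and in Mcm7 a CCAAT word overlaps an E2F-type word. A match describes the letters only, and among the genes called in WT, Mcm2 has no such E2F-type word in this window.

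Among MEP libraries the 10 genes varied little. The coefficient of variation over the 10 MEP libraries ran from 0.0419 for Mcm6 to 0.120 for Mcm10, and over the 10 HSC libraries without S211I replicate 2 it ran from 0.687 for Mcm5 to 2.13 for Mcm10. Mcm6 was at 1211 to 1376 CPM (median 1305) and Mcm2 at 675 to 904 CPM (median 847) over all MEP libraries. Cdc45, the lowest of the 10 in CPM, was at 71.1 to 83.2 CPM there. The lowest MEP library for Mcm2, Mcm3, Mcm4, Mcm6 and Mcm10 was P216L replicate 3, which also had the fewest counts of the MEP libraries.

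None of the 10 genes passed the test between a mutant genotype and WT in MEP. In MEP P216L, 0 of 10 were called against WT, as were 0% of 10773 genes tested, and log2 fold changes ran from -0.10 to -0.01. All 10 fitted estimates were below 0, where 51.3% of all genes were above it, with a median of -0.06, against 0.01 for all genes. This sign depends on single libraries: 6 of 10 were above 0 without P216L replicate 3 (median 0.007) and 5 without WT replicate 1, and 4 in voom. Mean levels of Mcm3 (623 CPM in MEP P216L and 621 CPM in MEP WT) and Cdc45 (77.4 CPM in MEP P216L and 77.0 CPM in MEP WT) were nearly equal. Mcm2 was at 904, 855 and 675 CPM in MEP P216L libraries, against 810 and 856 CPM in MEP WT libraries, and the groups overlapped. In MEP S211I, 0 of 10 were called, as were 0% of all genes, 4 of 10 were above 0, against 50.5% of all genes, and log2 fold changes ran from -0.14 for Mcm7 to 0.17 for Mcm10. Mcm10 was at 180 and 166 CPM in MEP S211I libraries, against 158 and 142 CPM in MEP WT libraries. It and Mcm4 were higher in S211I without overlap, as were 21.8% of all genes, and the change in Mcm10 was close to its SE of 0.16. Mcm7 was at 748 and 801 CPM in MEP S211I libraries, against 838 and 820 CPM in MEP WT libraries, and lay below WT without overlap in S211I, as did 15% of all genes, and in P216L, as did 6.94%. In the MEP double mutant, 0 of 10 were called against 0.102% of all genes, 6 of 10 were above 0, against 51% of all genes, and log2 fold changes ran from -0.11 for Mcm10 to 0.09 for Mcm5, the gene that was higher without overlap, as were 13.8% of all genes. Across these 3 comparisons, 0 of 10 genes had an unadjusted p under 0.05 in edgeR, DESeq2 and limma's voom with quality weights each called 0, and standard errors were 0.10 to 0.17. The share of all genes at an unadjusted p under 0.05 was 5.12% in P216L, 4.74% in S211I and 5.24% in the double mutant. The comparisons share the MEP WT libraries, and a p that misses the threshold does not show that the genotypes are equal.

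In HSC the mutant libraries had higher point estimates for most of the genes, and Mcm2 was the gene that passed. In HSC P216L, Mcm2 was at 520, 620 and 1444 CPM, against 0, 0 and 64.5 CPM in HSC WT libraries. All 3 mutant libraries lay above all WT libraries. The log2 fold change was 5.29 ± 1.06 (SE; edgeR adjusted p = 0.00237, n = 3 each), the third smallest p of 9471 genes tested. This was 1 of 10 genes called higher, where 0.106% of all genes were called higher. In HSC S211I, Mcm2 was at 43.0 CPM in replicate 1 and 905 CPM in replicate 2, against the same WT libraries, so replicate 1 lay inside the WT range. With both libraries the log2 fold change was 4.64 ± 1.06 (SE; edgeR adjusted p = 0.0279), 1 of 10 genes called higher against 0.0845% of all genes. Without replicate 2 it was 0.84 (edgeR adjusted p = 1). HSC S211I is then a single library, which the fit takes to vary like the other groups. In the HSC double mutant, Mcm2 was at 189, 86.6 and 730 CPM, all above the WT libraries, and missed the threshold with a log2 fold change of 4.04 ± 1.00 (SE; edgeR adjusted p = 0.0626). There 0 of 10 genes were called in edgeR, against 0.0528% of all genes called higher, and 3 had an unadjusted p under 0.05, against 10.5% of all genes. DESeq2 called 1 of the 9 to which it gave an adjusted p, Cdt1, against 1.87% of all genes. It did not call Mcm2 in the double mutant (DESeq2 adjusted p = 0.163) or in S211I (DESeq2 adjusted p = 0.206).

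These calls depend on single libraries. For HSC P216L, Mcm2 passed in 9 of 17 alternatives. By edgeR it missed without P216L replicate 1 (log2 fold change 5.57, adjusted p = 0.454), without P216L replicate 3 (4.52, adjusted p = 0.155), without WT replicate 1 (4.70, adjusted p = 0.478) and without WT replicate 2 (4.64, adjusted p = 0.0552). For HSC S211I it passed in 5 of 15, and missed also without WT replicate 1 (4.11, edgeR adjusted p = 0.717) and without WT replicate 2 (4.05, edgeR adjusted p = 0.347). Without WT replicate 3, the only WT library with Mcm2 reads, the fitted change has no finite bound, since both remaining WT libraries are at 0, and 2 genes, Mcm2 and Cdc6, were called in each of the 3 mutant comparisons. Calls over all genes rose too: 25, 22 and 23 of 9580 genes were called higher in P216L, S211I and the double mutant. With all libraries these were 10, 8 and 5 of 9471. For the double mutant, Mcm2 passed without double-mutant replicate 2 (4.48, edgeR adjusted p = 0.0278). Of all 9639 genes, that fit called 9 higher and 2 lower, against 5 and 2 of 9471 with all libraries.

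Mcm3 came next. It was at 631, 457 and 528 CPM in HSC P216L, at 344 and 614 CPM in HSC S211I and at 135, 44.6 and 703 CPM in the HSC double mutant, against 6.61, 136 and 22.8 CPM in HSC WT. The P216L and S211I libraries lay above the WT libraries, and the double-mutant libraries overlapped them. The log2 fold changes were 3.37 ± 1.11, 3.42 ± 1.16 and 2.72 ± 1.08 (SE; edgeR adjusted p = 0.283, 0.442 and 0.468). Mcm2 and Mcm3 were the 2 genes that did not overlap in P216L, where 4.87% of all genes were higher without overlap. Mcm3, Mcm4 and Cdt1 did not overlap in S211I, against 16.6% of all genes, and Mcm2, Mcm10 and Cdc45 did not overlap in the double mutant, against 11.3%.

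Among the loaders, Cdc6 was at 4.93, 628 and 654 CPM in HSC P216L, at 2.26 and 382 CPM in HSC S211I and at 332, 252 and 549 CPM in the HSC double mutant, against 0, 0 and 314 CPM in HSC WT. The groups overlapped in all 3 comparisons. Cdt1 was at 0, 0 and 141 CPM in HSC P216L, at 210 and 157 CPM in HSC S211I and at 65.4, 0 and 89.8 CPM in the HSC double mutant, against 0 in all 3 HSC WT libraries. In P216L the reads came from replicate 3 alone, and in S211I both libraries had them. Against the floor of 3 counts over the WT libraries, Cdt1 was at least 16.3-fold higher in P216L, 63.9-fold in S211I and 18-fold in the double mutant, and none passed (edgeR adjusted p = 0.372, 0.48 and 0.468). DESeq2 called Cdt1 in all 3 comparisons, where it called 3.19%, 1.06% and 1.87% of all genes. With WT at 0, the fitted change behind these calls has no finite bound.

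The other subunits and the activation factors did not pass in HSC. Mcm6, the subunit highest in MEP, was at 579, 1256 and 1344 CPM in HSC P216L, at 387 and 1319 CPM in HSC S211I and at 355, 154 and 994 CPM in the HSC double mutant, against 615, 41.4 and 556 CPM in HSC WT. Each mutant group overlapped WT. Mcm5 differed least, with log2 fold changes of -0.05 ± 1.09 in P216L, 0.98 ± 1.21 in S211I and 0.16 ± 1.09 in the double mutant, and the sign in the double mutant turned with RLE size factors, with no size factors, in DESeq2, in voom and after thinning to the smallest library. Mcm10 was at 0, 0 and 126 CPM in HSC P216L, at 2.26 and 164 CPM in HSC S211I and at 32.7, 8.12 and 9.77 CPM in the HSC double mutant, against 0, 4.87 and 0 CPM in HSC WT. In the double mutant the lowest mutant library held 3 counts and the highest WT library 2.

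Of the 10 genes, 9 had a log2 fold change above 0 in HSC P216L, 10 in HSC S211I and 10 in the HSC double mutant, against 52.9%, 58.8% and 60.2% of all genes. The exception was Mcm5 in P216L. Without the 3 HSC libraries of highest erythroid level (P216L replicate 3, S211I replicate 2 and double-mutant replicate 3), these counts were 6, 7 and 8. With S211I replicate 2 alone left out, the S211I count was 8, with Cdc6 at -5.55 and Cdc45 at -1.82. For both genes S211I replicate 1 held 1 count, and the WT reads (151 and 11 counts) were all in replicate 3. With RLE size factors, DESeq2, voom or no size factors, the double mutant had 9. Medians of the 10 genes were 2.52 in P216L, 2.19 in S211I and 2.20 in the double mutant, against 0.13, 0.43 and 0.44 for all genes. Each median moved with a single library. It was 0.72 in P216L without replicate 3, 0.33 in S211I without replicate 2 and 1.31 in the double mutant without replicate 3. With those 3 libraries left out together, the medians were 0.69 in P216L, 0.27 in S211I and 1.39 in the double mutant. The medians of all genes were then -0.16, -0.19 and 0.24. Without P216L replicate 3, Cdt1 was at 0 counts in both HSC P216L and HSC WT. Its fitted change of 0 lowers both P216L medians given without that library. Cdt1 is also among the 10 genes of which 6 were above 0. The WT libraries moved the medians too. Without WT replicate 3 they were 4.56, 5.38 and 3.86. The same 4 genes were then at 0 in the remaining WT libraries as in the comparison of MEP WT with HSC WT. The 3 comparisons share the HSC WT libraries. Marker sums also differed among the HSC libraries, and not all of them followed the 10 genes. The summed erythroid level was 8738 to 29162 CPM in HSC P216L, 9918 and 23626 CPM in HSC S211I and 8674 to 15920 CPM in the HSC double mutant, against 3171 to 7091 CPM in HSC WT. The summed HSC marker level was 1990 to 4122 CPM, 1137 and 4028 CPM, and 2140 to 4085 CPM in these mutants, against 4100 to 6730 CPM in HSC WT. The mitosis markers summed to 1062 to 5800 CPM in HSC P216L, 3172 and 3275 CPM in HSC S211I and 985 to 3625 CPM in the HSC double mutant, against 1012 to 1840 CPM in HSC WT. Stromal and endothelial markers summed to 12819 CPM in P216L replicate 1, 3537 CPM in double-mutant replicate 3 and 1844 CPM in S211I replicate 1 and to 25.9 to 128 CPM in the other mutant HSC libraries, against 350 to 1557 CPM in HSC WT. Megakaryocyte markers summed to 0 to 385 CPM in the mutant HSC libraries, all below the 416 to 589 CPM of HSC WT. Their part in the result was not tested. Without the same 3 libraries, which leaves a single S211I library, edgeR called 0 of 10 genes in each comparison, and Mcm2 had log2 fold changes of 4.52 in P216L, 0.82 in S211I and 2.72 in the double mutant.

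**Figure D3:**
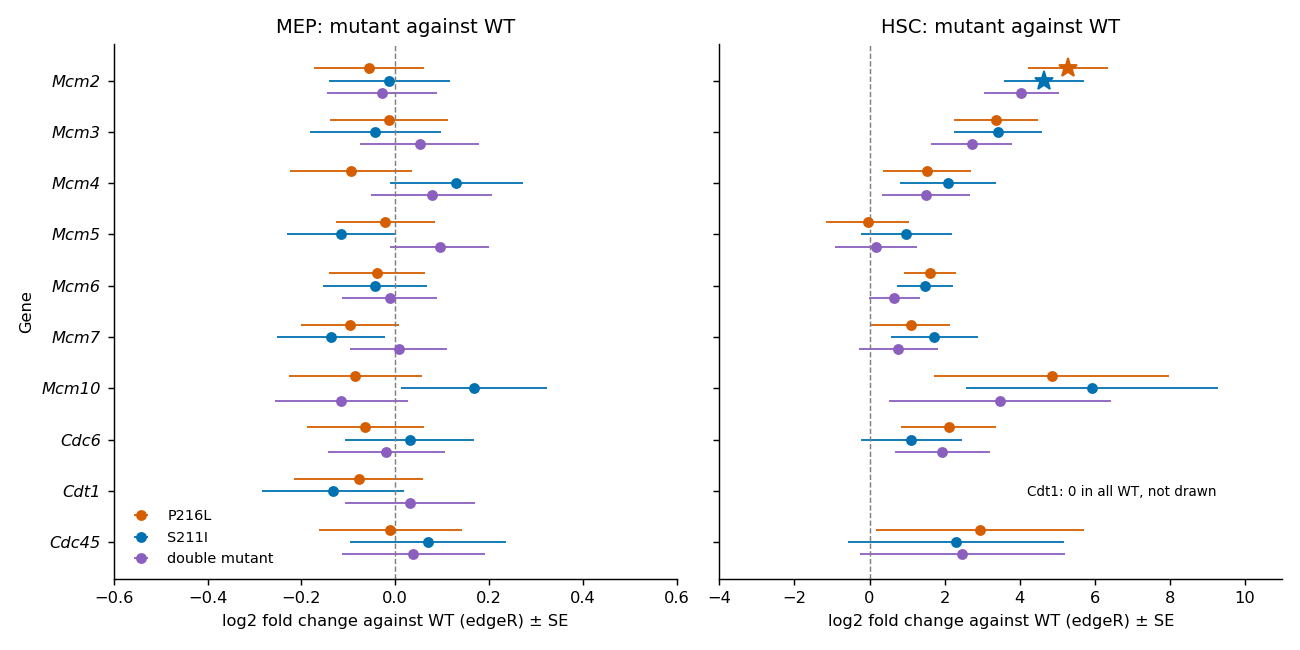
Log2 fold change against WT (x axis, edgeR, ± SE derived from the test's F) for each gene in MEP (left) and HSC (right). Colors show P216L, S211I and the double mutant. The x scales differ: MEP values lie between -0.14 and 0.17, and HSC values reach above 5 with wide error bars. Stars mark the 2 values that passed, both for Mcm2 in HSC, and Cdt1 is left out on the right because it was at 0 in all HSC WT libraries.

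**Figure D4:**
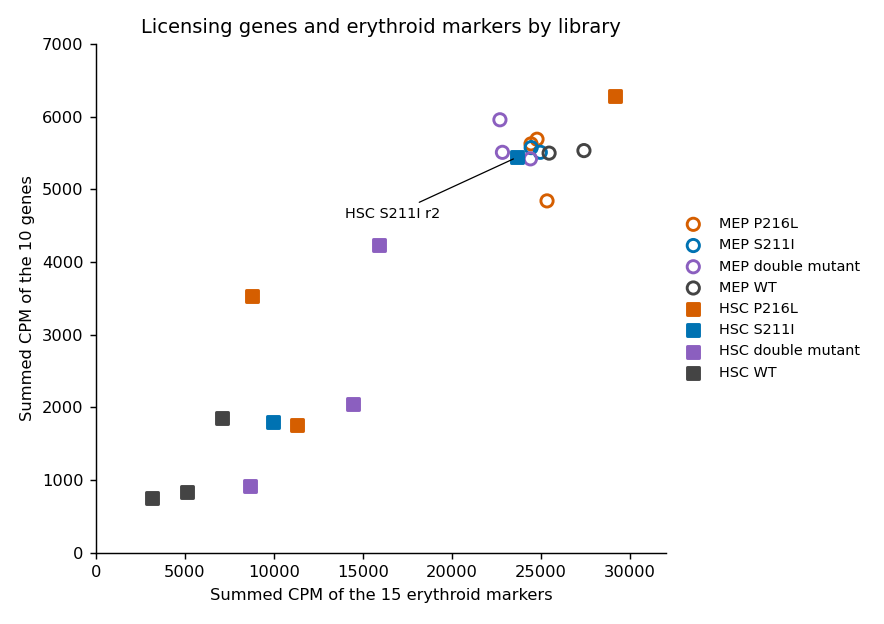
Summed CPM of the 10 genes (y axis) against summed CPM of 15 erythroid markers (x axis), 1 point per library. MEP libraries (open circles) gather at the upper right, HSC WT libraries (dark squares) lie at the lower left, and HSC P216L replicate 3 lies beyond the MEP libraries on both axes.

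Within each mutant genotype, none of the 10 genes passed between MEP and HSC. In P216L, 0 of 10 genes were called in edgeR, against 0.00831% of all genes called higher in MEP, and 0 had an unadjusted p under 0.05, against 19.7%. DESeq2 gave no adjusted p to Cdc6 and Cdt1 in these 3 comparisons, and in P216L it called 0 of the other 8, where it called 10.7% of all genes. Mcm5 and Cdt1 were higher in MEP without overlap, as were 26.4% of all genes. In the double mutant, 0 of 10 were called in edgeR, against 0.00831% of all genes called higher, with 1 (Mcm6) at an unadjusted p under 0.05, against 16.3%, and DESeq2 called 0 of 8, against 7.87% of all genes. There 8 of 10 were higher in MEP without overlap, against 21.2%. The exceptions were Mcm3 and Cdc6. In S211I, 0 of 10 were called, as were 0% of all genes, with 0 at an unadjusted p under 0.05 in edgeR, against 3.31%, and DESeq2 called 0 of 8, against 0.864% of all genes. Mcm4, Mcm10, Cdc6 and Cdc45 were higher in MEP without overlap, against 22.6%. HSC S211I replicate 1 had 43.0 CPM of Mcm2, 2.26 CPM of Cdc6 and 210 CPM of Cdt1, so that Cdt1 lay above all MEP libraries while Mcm2 and Cdc6 lay below them. Replicate 2 had 905, 382 and 157 CPM, near the S211I MEP libraries. Medians of the log2 fold changes of the 10 genes were 0.84 in P216L, 0.73 in S211I and 1.46 in the double mutant, against 0.56, 0.42 and 0.09 for all genes. They were larger with the HSC library of highest erythroid level left out: 2.25 in P216L without HSC replicate 3, 2.51 in S211I without HSC replicate 2 and 2.50 in the double mutant without HSC replicate 3, against 1.35, 1.94 and 0.39 for all genes. Without HSC S211I replicate 1 instead, the S211I median was 0.014. In both S211I cases the fit takes the 1 remaining HSC library to vary like the other groups.

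Whether a mutant's effect differed between cell types was tested directly. For P216L, 0 of 10 genes were called against 0.0997% of all genes, and 3 (Mcm2, Mcm3 and Cdt1) had an unadjusted p under 0.05, against 16.2%. For Mcm2 the P216L effect in MEP minus that in HSC was -5.40 ± 1.56 (SE; edgeR adjusted p = 0.172). The same difference was -4.77 ± 1.72 in S211I (edgeR adjusted p = 0.386), where it was -0.66 without HSC S211I replicate 2 (edgeR adjusted p = 1). It was -4.19 ± 1.53 in double mutants (edgeR adjusted p = 0.241). For S211I, 0 of 10 were called in edgeR, as were 0% of all genes, with 4 genes at an unadjusted p under 0.05, against 10.6%. The median of the 10 differences in S211I was -2.20, and -0.23 without HSC S211I replicate 2. For the double mutant, 0 of 10 were called in edgeR, against 0.0166% of all genes, with 3 genes at an unadjusted p under 0.05, against 15.2%. DESeq2, which again gave no adjusted p to Cdc6 and Cdt1, called Mcm2 for P216L, 1 of 8, and 0 of 8 for S211I and for the double mutant, where it called 7.83%, 3.91% and 5.64% of all genes. In edgeR, Mcm2 was called for all 3 genotypes without HSC WT replicate 3. Of 11992 genes, that fit called 75 below 0 and 1 above it for P216L. It called 53 below and 0 above for S211I, and 72 below and 0 above for the double mutant. Mcm2 was at 0 counts in both remaining HSC WT libraries, so its fitted difference has no finite bound.

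The helicase is a ring with 1 copy of each of the 6 subunits, so their levels were compared per kilobase of transcript (CPM per kb, on the length of the principal transcript in GENCODE M21). In MEP, Mcm6 was highest at 446 ± 18.7 CPM per kb (SD, n = 10 libraries). Mcm7 followed at 273 ± 14.7, Mcm2 at 245 ± 18.8, Mcm3 at 208 ± 19.4, Mcm5 at 175 ± 10.9 and Mcm4 at 149 ± 17.1 CPM per kb. Mcm6 was the highest subunit in all 10 MEP libraries, and Mcm4 the lowest in 9, with Mcm5 lowest in S211I replicate 1. The ranges of Mcm7 (252 to 297), Mcm2 (200 to 268), Mcm3 (169 to 238), Mcm5 (154 to 190) and Mcm4 (115 to 173) each overlapped with the next in this order, while that of Mcm6 (416 to 473) lay above all. Outside the ring, Cdc6 was at 168 ± 14.3, Cdt1 at 76.8 ± 6.92, Cdc45 at 36.9 ± 2.05 and Mcm10 at 30.7 ± 3.69 CPM per kb.

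The ratio of the highest to the lowest subunit in a library was 2.72 to 3.62 in MEP. In HSC S211I replicate 2 it was 3.22. Of the other 10 HSC libraries, 7 had reads of all 6 subunits, with ratios of 3.22 to 25.4, and P216L replicate 3 (3.22) and double-mutant replicate 3 (3.39) were nearest to MEP. P216L replicate 1 had no reads of Mcm4, and WT replicates 1 and 2 had none of Mcm2. The highest subunit made up 28.5 to 31.6% of the summed CPM per kb in MEP, and 26.3 to 83.6% in the 10 HSC libraries, with the 3 WT libraries at 83.6% (Mcm6), 57.2% (Mcm7) and 40.3% (Mcm6). The HSC WT libraries are also among the shallowest, with 151216 to 480419 counts, and the part of depth in this spread was not tested.

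**Figure D5:**
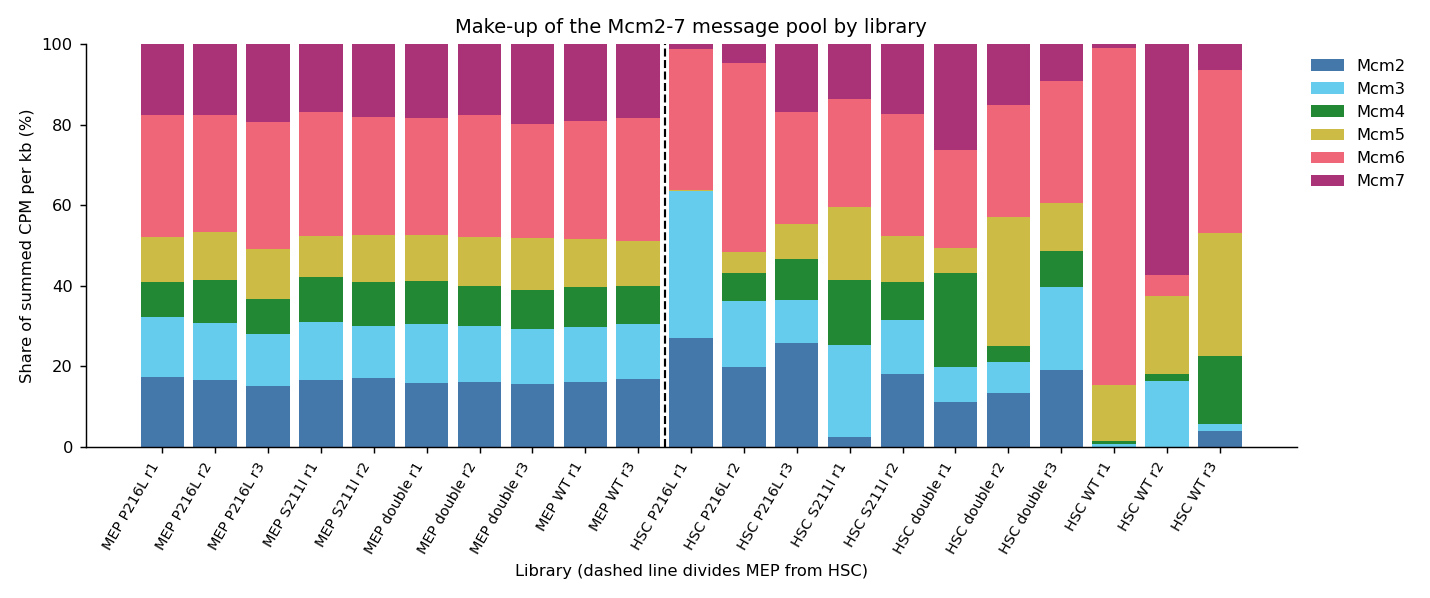
Share of each subunit in the summed CPM per kb of Mcm2 to Mcm7 (y axis, percent) for each library (x axis), MEP left of the dashed line and HSC right of it. The 10 MEP bars and the bar of HSC S211I replicate 2 are alike, while in HSC WT a single subunit takes 40.3 to 83.6%.

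The other genes of origin firing and DNA synthesis were taken as 6 lists with 65 genes. In WT, 6 of 65 were called higher in MEP than in HSC and 0 lower, against 3.62% and 0.474% of all genes, and 63 of 65 had a log2 fold change above 0, against 62.9% of all genes. Of the origin recognition complex, Orc1 was called, at 89.2 CPM in MEP WT and 0 in HSC WT, at least 31.0-fold higher. Of 13 GINS and initiation factors, 3 were called: Timeless, a fork protection protein, was at least 66.5-fold higher in MEP, Gins4, a subunit of GINS, at least 36.5-fold, and Donson, an initiation factor, at least 32.1-fold, all 3 at 0 in HSC WT. Among the polymerase genes Pole4, a small subunit of polymerase epsilon, averaged 129 ± 4.22 CPM in MEP WT and 4.86 ± 8.41 CPM in HSC WT (SD, n = 2 and 3; log2 fold change 5.01 ± 1.38, edgeR adjusted p = 0.0379). Of the clamp and clamp loader genes Rfc3 was called, at least 27.2-fold higher, with 78.5 CPM in MEP WT and 0 in HSC WT.

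No gene of the list of Cdt1 control, kinase and loading accessory genes passed, nor of the list of E2F, cyclin and Cdk2 genes. Ddb1, part of the ligase that degrades Cdt1, averaged 587 ± 27.0 CPM in MEP WT and 648 ± 684 CPM in HSC WT (SD). Cul4a, its cullin scaffold, averaged 486 ± 3.55 CPM in MEP WT and 118 ± 192 CPM in HSC WT. E2f4 averaged 504 ± 8.72 CPM in MEP WT and 102 ± 122 CPM in HSC WT, and Ccna2, the S phase cyclin, 390 ± 8.83 CPM in MEP WT and 78.0 ± 67.6 CPM in HSC WT. The medians of the 6 lists in WT, with genes at 0 in HSC set at their bound, were 2.22 for origin recognition, 2.25 for Cdt1 control, 3.67 for GINS and initiation, 2.41 for polymerases, 2.23 for clamp, loader and RPA, and 2.80 for E2F and cyclins, against 0.90 for all genes. Among HSC mutants 0 of 64 genes tested were called in each comparison with WT, where 0.106%, 0.0845% and 0.0528% of all genes were called higher, and 54 in P216L, 58 in S211I and 54 in the double mutant had a log2 fold change above 0, against 52.9%, 58.8% and 60.2% of all genes. Fen1, the flap endonuclease of lagging strand synthesis, averaged 749 CPM in HSC P216L, 883 CPM in HSC S211I and 541 CPM in the HSC double mutant, against 175 CPM in HSC WT. The S211I values of these lists include replicate 2. In MEP 0 of 65 were called in each mutant, against 0%, 0% and 0.102% of all genes, with 18 above 0 in P216L, 21 in S211I and 22 in the double mutant, against 51.3%, 50.5% and 51% of all genes.

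Among genes outside the 10, those whose log2 CPM followed the mean of the 10 most closely were named within each cell type, as a description without a test. Over the 10 MEP libraries the highest Pearson r values were 0.971 for Slc25a10, 0.961 for Ercc2, 0.946 for Ddb1, 0.936 for Caskin2 and 0.918 for Vars, among 10773 genes. Over the 10 HSC libraries without S211I replicate 2 they were 0.954 for Car2, 0.954 for Tk1, 0.952 for Rpl4, 0.948 for Slc39a8 and 0.947 for Hemgn, among 11118 genes. Car2 encodes a carbonic anhydrase and is one of the erythroid markers, and Tk1 encodes the thymidine kinase of S phase. The points share library depth and the normalization, and the HSC libraries mix genotypes. Between pairs of the 10 genes themselves the median r over the 45 pairs was 0.30 in MEP and 0.52 in HSC.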

How the data were processed

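The deposited table held estimated counts per gene for 21 libraries, made with the SMART-Seq v4 kit per the labels' protocols. FastQC, Salmon and the assembly GRCm39 are named by the submitters' processing notes, with versions not given in the sources used here, and how the authors summed transcripts to genes is not stated. Between 6.09% and 33.1% of the deposited estimated counts above 0 in a library were not whole, and they were rounded before tests. The 308 genes whose ID matched no symbol held 0.0442% of counts and stayed in the tests.

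Genes were filtered with filterByExpr (minimum count 10, minimum total 15), scaled by TMM and tested with edgeR's robust quasi-likelihood test (edgeR 4.0.16, R 4.3.3) with Benjamini-Hochberg adjustment at 0.05. HSC genotypes were fitted over 11 HSC libraries, MEP genotypes over 10 MEP libraries, and MEP against HSC, with the interactions, over all 21. The biological coefficient of variation was 1.60 in the HSC fit, 0.174 in the MEP fit and 1.06 in the joint fit. After these fits, the same tests were run on counts simulated from their fitted means with known changes, and the outcome is not given here. DESeq2 1.42.0 and limma 3.58.1 gave alternatives, and figures were drawn with Python 3.11.15 and matplotlib 3.10.9. Floors are 3 counts and cover counting error only. A level of 6.61 CPM in HSC WT replicate 1 or of 2.26 CPM in HSC S211I replicate 1 is 1 count, below the floor. No pair of libraries of a group agreed within counting noise (chi-square per degree of freedom 4.63 to 88.2 over 18 pairs). Same-numbered replicates did not deviate together (median correlation -0.0040 over all libraries), so the numbers were not treated as pairs.

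The 10 genes, the pathway lists and the tests were chosen with earlier results of these data known. From each pathway list the genes with the smallest adjusted p past the threshold were named, at most 4, and otherwise up to 2 with the highest mean CPM. Likeness is given within each cell type, leaving HSC S211I replicate 2 out of the HSC libraries. Transcript lengths and overlaps came from GENCODE M21 on GRCm38, and promoters from RefSeq on GRCm38.p6, not from the build the submitters name.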

Additional observations from a re-analysis of the deposited data

How the results depend on the processing

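Of the log2 fold changes of the 10 genes in WT MEP against HSC and in the HSC mutants, 40 were followed through 618 alternative values, of which 545 kept their direction and side of the threshold, 25 lost and 25 gained a call, and 23 turned sign; the cause was not tested. In WT MEP against HSC, 3 genes were called, with 9 in voom, 0 with the 5 libraries alone and 2 to 4 with a library left out. Of all genes, voom called 1220 higher and 645 lower among 12036, and the 5 libraries alone gave 0 calls among 7631. In HSC P216L, where 1 was called, the count was 2 in DESeq2, 0 without the low-count filter, with the 2 groups alone, thinned to 151215 counts and without the 3 libraries of highest erythroid level, and 0 to 2 with a library left out. In HSC S211I, where 1 was called, it was 4 in voom, 0 in those same 4 settings, with RLE and with no size factors, and 0 to 2 with a library left out. In the HSC double mutant, where 0 were called, it was 1 in DESeq2 (Cdt1) and 0 to 2 with a library left out. It was also 1, Mcm2, in voom (log2 fold change 5.64, voom adjusted p = 0.0317) and with a replicate block (5.36, edgeR adjusted p = 0.00453). The block moved no other count of the 10 genes called, and the replicate numbers share only a label. Over all genes, DESeq2 called 3.19% in HSC P216L, 1.06% in S211I and 1.87% in the double mutant. Of 9471 genes, voom called 526 higher and 97 lower in HSC S211I, and 185 higher and 36 lower in the double mutant. The block called 10 higher and 1 lower in the double mutant. Without the filter, and with the 2 groups alone, 0 of all genes were called in these 3 comparisons. Between MEP and HSC, the groups alone gave 1 in the double mutant (Mcm10), and P216L gave 0 to 2 with a library left out. The 2, Mcm10 and Cdt1, were called without HSC P216L replicate 3. Both genes were at 0 counts in the remaining HSC P216L libraries, so their fitted changes have no finite bound. Over all genes, the double mutant groups alone gave 470 higher and 259 lower of 9658. P216L without HSC replicate 3 gave 340 higher and 100 lower of 12092. For the P216L interaction DESeq2 gave 1, and each interaction gave 0 to 1 with a library left out. Mcm5 in the HSC double mutant turned to -0.11 with RLE and in DESeq2, -0.031 in voom, -0.0438 with no size factors, -0.051 thinned and -0.62 without the 3 libraries. Without those libraries Mcm7 was -1.19 and Mcm10 -3.06 in P216L, Mcm6 -0.027, Cdc6 -5.54 and Cdc45 -1.83 in S211I, and Mcm6 -0.39 in the double mutant. In that P216L comparison Mcm10 was at 0 counts in both remaining P216L libraries and at 2 counts in WT, so -3.06 is no bound. With a library left out, Mcm5 ran from -0.66 to 1.17 and Mcm6 from -0.44 to 1.18 in the double mutant, Mcm5 from -1.52 to 0.96, Mcm7 from -1.15 to 2.79 and Mcm10 from -4.53 to 9.37 in P216L, and Cdc6 from -5.55 to 11.7 and Cdc45 from -1.82 to 9.16 in S211I. The upper ends of Cdc6 and Cdc45 (without HSC WT replicate 3) and Mcm10 (without HSC WT replicate 2), and the lower end of Mcm10 (without P216L replicate 3), come from fits with 1 group at 0 counts and are no bounds. Counts over all genes ranged more widely: 493 (0 to 2160) in WT MEP against HSC, and 10 (0 to 302), 8 (0 to 623) and 7 (0 to 221) in HSC P216L, S211I and the double mutant. No size factors and leaving out the 3 libraries were added after seeing the data. At 151216 to 480419 counts, a count of 0 in an HSC WT library allows a level of up to 6.24 to 19.8 CPM (3 counts).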
